A study of Mus musculus with 50 samples.

Results

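Mbp, Mog, Mag, Mobp, Cnp, Cldn11, Mal, Opalin and Ermn code for proteins of the myelin sheath and of the mature oligodendrocytes that build it. They were chosen by symbol as known myelin genes and make up 9 of the 55487 genes counted. All 9 were among the 16330 protein-coding genes with enough counts to be tested. RNA was sequenced from mouse frontal cortex at 5 ages (E14, E18, P7, P35 and P70) and in 2 genotypes, with 5 mice in each of the 10 groups. The mice were wild type (WT) or heterozygous (Het), with 1 copy of Setd1a made non-functional. Setd1a is a histone methyltransferase gene in which rare variants raise the risk of schizophrenia. The study's aim was to follow the effect of losing 1 copy of Setd1a on cortical gene expression from before birth to adulthood.

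The 10 groups paired WT with Het mice at each age, all labelled C57BL/6NTac. The allele, named tm1d, comes from a knockout-first design, and the paper describes the mice as males bred from heterozygous fathers and wild-type mothers on a mixed C57BL/6NTac and C57BL/6J background. The methods name the tissue taken from embryos as frontal brain regions and that of later ages as frontal cortex, and mice were weaned before P35. The authors captured polyadenylated RNA, sequenced 150-base read pairs in a single batch and deposited raw counts per gene. Total counts per library ran from 35507165 to 43907318 with a median of 38626998. Levels here are CPM, counts scaled to the size of each library. A gene with no counts in a library could still be present at up to 3 counts, which is 0.0699 to 0.0893 CPM, a limit that covers counting error only.

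Oligodendrocytes arise from precursor cells, pass through a short-lived newly formed stage and then wrap axons in a compacted membrane that speeds conduction. In the mouse forebrain most precursors appear around birth and most myelin is laid down in the weeks after it. Mbp holds the membrane layers together, and other proteins line the cytoplasmic channels, the seal between turns and the surface that faces the axon.

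Setd1a itself was read in every group. At E14 it was at 129, 129.8, 136, 119 and 119 CPM in WT libraries and at 150.2, 136, 128, 139.6 and 130.1 CPM in Het libraries. At E18 the mean was 93.8 CPM (SD 5.33, n = 5) in WT libraries, and the Het libraries held 104, 117, 96.9, 104 and 113 CPM (mean 107, SD 8.13). The WT values at P7 were 72.5, 76.2, 70.2, 70.7 and 71.3 CPM, against 81.9, 78.3, 76.4, 83.5 and 83.7 CPM in Het. In none of these 3 ages was the Het mean lower. P35 gave 91.7, 82.4, 81.7, 84.6 and 85.2 CPM in WT and 91.9, 88.2, 88.3, 89.4 and 91.6 CPM in Het. P70 gave 84.4, 88.7, 84.8, 81.6 and 92.0 CPM in WT and 81.9, 86.0, 81.5, 76.6 and 97.8 CPM in Het. Over all ages Setd1a counts were higher in the libraries labelled Het by a log2 fold change of 0.10 (SE 0.025, edgeR adjusted p 0.00679). Reads are summed over the whole gene, so the deletion in the tm1d allele cannot be read from these counts. The span of Gm49388, another protein-coding gene, overlaps that of Setd1a on the same strand, and its part in the Setd1a counts was not tested. The genotypes are those of the labels.

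3 libraries stood apart. E14 WT replicate 5 and E18 WT replicate 2 held Xist counts and at most 11 counts over 4 Y-linked genes, while the other 48 libraries held at most 27 Xist counts and at least 4711 Y-linked counts. P7 WT replicate 2 stood apart in the myelin genes themselves, and the edgeR tests that use P7 are given for the 9 genes with and without it. All 5 frontal cortex markers were counted in every group, with sums from 315 CPM, in that library, to 2023 CPM.

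All 9 myelin genes were far above the other P7 libraries in P7 WT replicate 2. Mbp, the myelin basic protein that zips the cytoplasmic faces of the membrane together, was at 77.7, 715, 77.2, 103 and 80.2 CPM in the WT libraries at P7. In Het libraries it was at 75.7, 81.3, 74.9, 80.9 and 67.3 CPM. Replicate 2 alone was high, at 9.20 times the median of the other 9 libraries, and the remaining WT values overlapped the Het values. Mobp, a second basic protein of compact myelin, was at 2.64, 95.0, 1.19, 3.86 and 2.87 CPM in WT. Its Het values were 0.866, 1.91, 1.95, 2.33 and 1.57 CPM. The high library was 48.7 times the median of the rest and held 3874 Mobp counts against 32 to 143 in the others.

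Mag, the glycoprotein of the membrane that faces the axon, was at 3.37, 63.3, 3.24, 4.83 and 4.50 CPM in the WT libraries at P7. In Het it was at 3.30, 3.62, 3.79, 4.41 and 3.01 CPM, so that replicate 2 was 17.5 times the median of the other 9 and no other library was above 4.83 CPM. Of the other 6 genes 5 had a smaller excess over the median in the same library, and Opalin, with a median of 0, has none to compare. Cnp, the enzyme that keeps cytoplasmic channels open in the sheath, was at 206.2 CPM against 75.8 to 87.3 CPM. Cldn11, the tight-junction protein that seals the turns of the sheath, was at 54.7 CPM against 11.2 to 16.4 CPM. Mog, a glycoprotein of the outermost surface, was at 15.7 CPM against 5.98 to 7.95 CPM, the smallest excess at 2.29 times the median. Mal, a proteolipid of membrane sorting, was at 11.7 CPM against 1.50 to 2.66 CPM. Ermn, a cytoskeletal protein of late maturation, was at 3.31 CPM against 0.415 to 1.08 CPM. Opalin, a transmembrane protein found in oligodendrocytes, had 17 counts against 0 to 7.

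**Figure D1:**
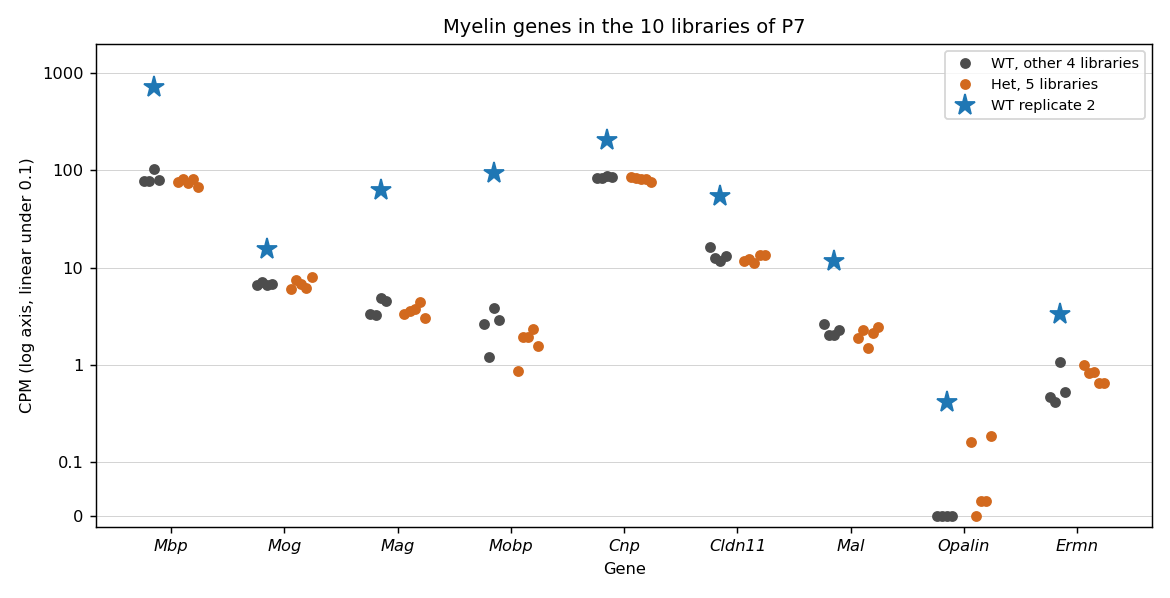
Levels of the 9 myelin genes (CPM, log axis) in each of the 10 libraries at P7, with WT and Het marked. P7 WT replicate 2 is above the other 9 libraries for 9 of 9 genes. Where their median is above 0 (all genes but Opalin) the excess runs from 2.29 times it for Mog to 48.7 times for Mobp.

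Other gene groups moved in that library too. Of the other 32 myelin and mature oligodendrocyte genes 27 were above the remaining P7 libraries, as were 9 of 10 oligodendrocyte transcription factors and 6 of 8 genes of newly formed oligodendrocytes. The precursor genes were split, with 3 of 8 above and 5 below, and 9 of 14 genes of lipid and cholesterol synthesis were below. Among all tested genes 31.1% were above the other 9 libraries and 29.7% below. All 5 choroid plexus markers were above, with a sum of 619 CPM against 2.93 to 4.37 CPM, of which Ttr alone was 598 CPM. The 5 thalamus and hindbrain markers summed to 56.8 CPM against 22.01 to 31.6 CPM. Their most abundant gene elsewhere, Prkcd, was not raised, at 23.03 CPM against 20.8 to 29.7 CPM. The other 4 were, with Lhx9 at 26.3 CPM against 0.830 to 2.33 CPM, Hoxb3 at 4.34 CPM against at most 0.105 CPM, Gbx2 at 2.40 CPM against at most 0.352 CPM and Hoxa5 at 0.785 CPM against at most 0.131 CPM. Of the 6 striatal markers 4 were below and 0 above, with a sum of 82.3 CPM against 86.8 to 279.6 CPM. All 5 frontal cortex markers were below, with a sum of 315 CPM against 729 to 863 CPM. Astrocyte markers summed to 1358 CPM against 758 to 889 CPM and neuron markers to 1727 CPM against 2163 to 2485 CPM. What part other tissue had in the myelin values of this library was not tested.

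The ages are described next, gene by gene in the order of their roles. Mbp was at 27.2, 21.6, 23.8, 23.7 and 21.7 CPM in the E14 WT libraries and at 27.8, 20.98, 20.5, 23.9 and 22.4 CPM in Het. E18 libraries held 22.0, 23.8, 21.2, 25.3 and 26.6 CPM in WT and 26.5, 27.6, 22.6, 31.3 and 25.9 CPM in Het. Reads of the Mbp gene were therefore counted before birth at a low and even level. They are summed over all its exons, so which of its transcripts they came from cannot be told. At P35 the WT values were 2216, 2497, 2068, 2144 and 2192 CPM and the Het values 1901, 2312, 2356, 2631 and 2300.0 CPM. At P70 they were 1839, 1879.7, 1554, 1733 and 1756 CPM in WT and 1711, 1726, 2029.5, 1734 and 1755 CPM in Het. WT and Het ranges overlapped at each of these 4 ages, and every adult library was above every P7 library. The embryonic means were 1.03% and 1.12% of the P35 mean of 2262 CPM (SD 209, n = 10).

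Mobp was the gene nearest to absent before birth apart from Opalin. Its E14 WT values were 0.147, 0.108, 0.126, 0.622 and 0.284 CPM, and its E14 Het values 0.373, 0.0758, 0.0259, 0.152 and 0.0233 CPM. At E18 WT libraries held 0.0261, 0.256, 0, 0.120 and 0.0499 CPM and Het libraries 0.287, 0.0272, 0.542, 0.287 and 0.452 CPM. Several of these are at or below the limit set by 3 counts. In the P35 WT libraries it was at 610.2, 736, 589, 616 and 713 CPM, and in Het at 552, 636, 652, 809 and 691 CPM. At P70 the values were 517, 547, 445, 523 and 499 CPM in WT and 489, 509.7, 606, 488 and 529.9 CPM in Het. Without P7 WT replicate 2 the P7 mean was 0.323% of the P35 mean, the lowest such share at P7 after Opalin, and with that library it was 1.73%.

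Mal was the lowest of Mal, Cnp and Cldn11 by its mean at E14, E18 and P7. It was between 0.441 and 2.10 CPM at E14 and between 0.899 and 2.98 CPM at E18, against 205.6 to 305 CPM at P35 and 156 to 205.6 CPM at P70. Cnp was already at 43.2 to 52.2 CPM at E14 and at 50.6 to 59.5 CPM at E18. It stood at 360.3 to 469 CPM at P35 and at 243 to 336 CPM at P70, so that its E14 mean was 11.6% of the P35 mean while that of Mal was 0.340%. Of the exon bases of Cnp 463 (12.7%) are shared with Dnajc7 on the other strand, and counting was unstranded. The part of Dnajc7 reads in the embryonic level of Cnp was not tested, and over the 10 libraries of each age the 2 genes had Pearson r 0.59 at E14 (permutation p 0.0715, adjusted 0.157), 0.52 at E18 (0.126, adjusted 0.188) and 0.27 at P7 (0.478, adjusted 0.538). Spearman rho was 0.43, 0.49 and 0.10 (adjusted permutation p 0.326, 0.326 and 0.784), and r without the 2 farthest libraries 0.24, 0.42 and 0.23.

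Cldn11 varied widely between libraries of the same embryonic group. Its E14 values were 0.264, 0.813, 10.7, 5.44 and 18.8 CPM in WT and 0.948, 34.5, 15.9, 21.6 and 19.8 CPM in Het. At E18 they were 59.5, 29.6, 28.8, 29.8 and 0.824 CPM in WT and 28.9, 0.979, 47.0, 25.0 and 27.8 CPM in Het. At each embryonic age some libraries were below 1 CPM and others above 18 CPM, in both genotypes. At P35 it was between 179.9 and 251 CPM and at P70 between 112 and 160.5 CPM, where no library was near those low values.

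Cldn11 is also known from the arachnoid barrier layer of the meninges, and 8 genes of meningeal fibroblasts were read beside it. They were chosen after the spread of Cldn11 had been seen, and no test was run. Their summed level at E14 was 16.1, 37.6, 212.6, 141 and 404 CPM in WT and 32.8, 1626, 239, 549.6 and 335 CPM in Het, replicates 1 to 5. The 3 E14 libraries with Cldn11 below 1 CPM were the 3 with the lowest sums, and E14 Het replicate 2 had the highest of both. The sums at E18 were 834, 326, 704, 641 and 77.9 CPM in WT and 451, 374, 519, 283 and 297 CPM in Het. E18 WT replicate 5 was lowest in both and E18 WT replicate 1 highest in both, whereas E18 Het replicate 2 had little Cldn11 at a sum of 374 CPM. In that last library 6 of the 8 meningeal genes were below the rest of their group: Slc6a13 (1.25 against 15.9 to 40.5 CPM), Dcn (4.05 against 19.1 to 34.3 CPM), Col3a1 (35.96 against 64.7 to 113 CPM), Aldh1a2 (0.924 against 9.37 to 24.4 CPM), Foxc1 (4.78 against 12.9 to 20.97 CPM) and Lum (1.71 against 2.55 to 4.79 CPM). Col1a1, at 197 CPM, was above the rest (69.001 to 134 CPM) and Col1a2, at 129 CPM, was within them (86.03 to 152 CPM). Choroid plexus markers also differed between embryonic libraries. At E14 they summed to 0.734, 21.03, 384, 256 and 406 CPM in WT, replicates 1 to 5. In E14 Het they summed to 60.3, 1.95, 183, 445 and 463 CPM. At E18 the sums were 5.57, 5.23, 232, 193.2 and 9.39 CPM in WT and 2.09 to 5.71 CPM in Het. The part of meningeal or choroid plexus tissue in the embryonic values of Cldn11 was not tested.

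**Figure D2:**
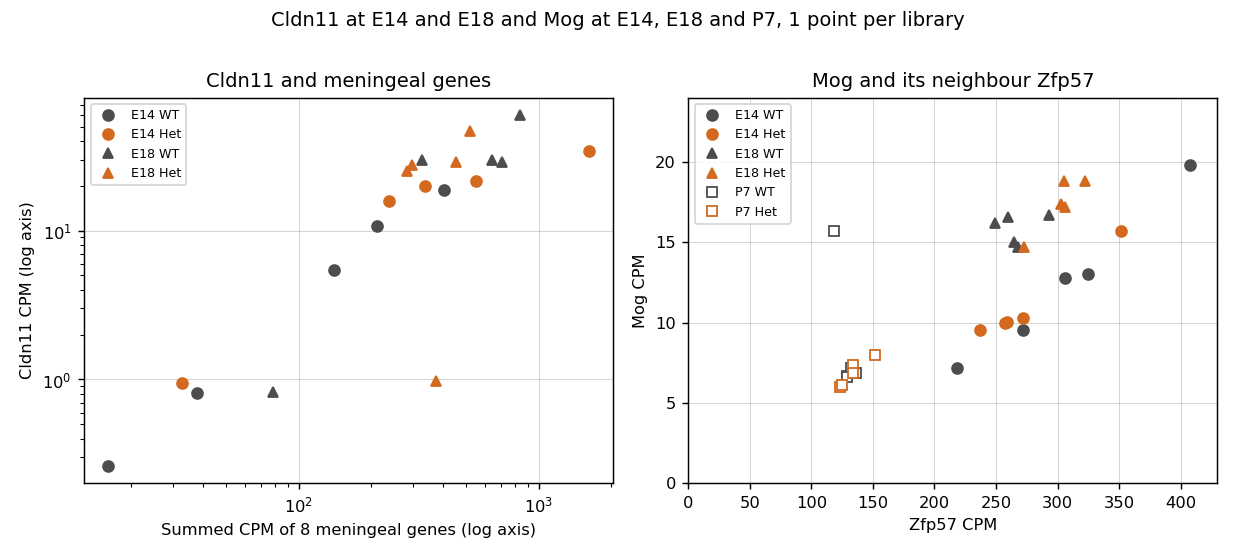
Left, Cldn11 against the summed level of 8 meningeal genes (CPM, log axes) in the E14 and E18 libraries; right, Mog against its neighbour Zfp57 (CPM) in the E14, E18 and P7 libraries, 1 point per library. Cldn11 ranges from 0.264 to 59.5 CPM, and Mog follows Zfp57 at E14 with a Pearson r of 0.98.

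Mag was at 0.165 to 0.617 CPM at E14 and at 0.384 to 1.03 CPM at E18. It was between 189 and 237 CPM at P35 and between 126 and 162.8 CPM at P70, with the genotypes overlapping at every age. Mog, its counterpart on the outer surface, had higher means at E14 (11.8 CPM) and E18 (16.6 CPM) than at P7 (6.84 CPM, or 7.73 CPM with WT replicate 2), and the ranges at E14 and P7 overlapped. The E14 values were 13.01, 19.8, 12.8, 9.55 and 7.16 CPM in WT and 9.998, 9.53, 15.7, 10.03 and 10.3 CPM in Het. At E18 WT libraries held 16.2, 14.7, 14.99, 16.6 and 16.7 CPM and Het libraries 14.7, 18.8, 18.8, 17.4 and 17.2 CPM. Every E18 library was above the 9 P7 libraries other than P7 WT replicate 2, which ran from 5.98 to 7.95 CPM. At P35 Mog stood between 62.4 and 79.6 CPM and at P70 between 33.7 and 50.5 CPM.

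The end of Mog lies 107 bases from the end of Zfp57, which runs toward it on the other strand. Zfp57, a zinc-finger gene of imprinting control, had means of 306 and 275 CPM at E14 in WT and Het, 267 and 302 CPM at E18, 129 and 133.5 CPM at P7, and 16.1 and 14.1 CPM at P35. Over the 10 libraries at E14 the 2 genes had Pearson r 0.98 (permutation p 2e-05, adjusted 0.00018) and Spearman rho 0.93 (permutation p 0.00038, adjusted 0.00342), over 9 relations between neighbours computed at 3 ages. Without the 2 libraries farthest from the median r was 0.95. Mog was 3.29 to 4.85% of Zfp57 in these libraries, against 5.40 to 6.48% at E18 and 4.87 to 13.3% at P7. At E18 r was 0.78 (permutation p 0.0115, adjusted 0.0344) and rho 0.75 (permutation p 0.0177, adjusted 0.0796), with r again 0.78 without the 2 farthest. At P7 r was −0.31 (permutation p 0.268, adjusted 0.344), rho was 0.37 (permutation p 0.296, adjusted 0.381), and r was 0.88 without the 2 farthest. With unstranded counts, reads that run on from Zfp57 and reads of Mog transcripts cannot be told apart, and their part in the embryonic level of Mog was not tested.

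Opalin and Ermn, the remaining members, had the lowest adult levels. Opalin counts were 2, 0, 2, 0 and 3 in the E14 WT libraries and 0, 0, 0, 1 and 0 in Het. At E18 they were 0 in 5 of 5 WT libraries, and 0, 0, 1, 0 and 1 in Het. No level above the limit of 3 counts was seen before birth. At P7 they were 0, 17, 0, 0 and 0 in WT and 6, 0, 1, 1 and 7 in Het. At P35 the counts were 738, 765, 702, 683 and 866 in WT and 661, 743, 712, 883 and 718 in Het. Opalin was then at 19.7 to 24.99 CPM in WT and at 16.8 to 25.9 CPM in Het, and at P70 it lay between 10.9 and 25.3 CPM. Ermn was at 1.54 to 2.63 CPM at E14, 0.515 to 2.82 CPM at E18, 33.5 to 45.9 CPM at P35 and 35.98 to 50.7 CPM at P70. It was the only one of the 9 whose P70 mean, at 40.7 CPM (SD 4.49, n = 10), was above its P35 mean, at 38.6 CPM (SD 4.04), and the 2 ranges overlapped. Ermn shares 237 exon bases (6.52%) with Galnt5 on the other strand. Their correlation at P7 (r 0.85, permutation p 0.00824, adjusted 0.0344, and rho 0.65, permutation p 0.0493, adjusted 0.148) rested on the 2 farthest libraries, without which r was 0.13. At E14 r was −0.01 (permutation p 0.972, adjusted 0.972) and rho −0.15 (adjusted permutation p 0.767), with r 0.38 without the 2 farthest. At E18 r was 0.56 (permutation p 0.0872, adjusted 0.157) and rho 0.44 (adjusted permutation p 0.326), with r −0.00 without the 2 farthest.

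**Figure D3:**
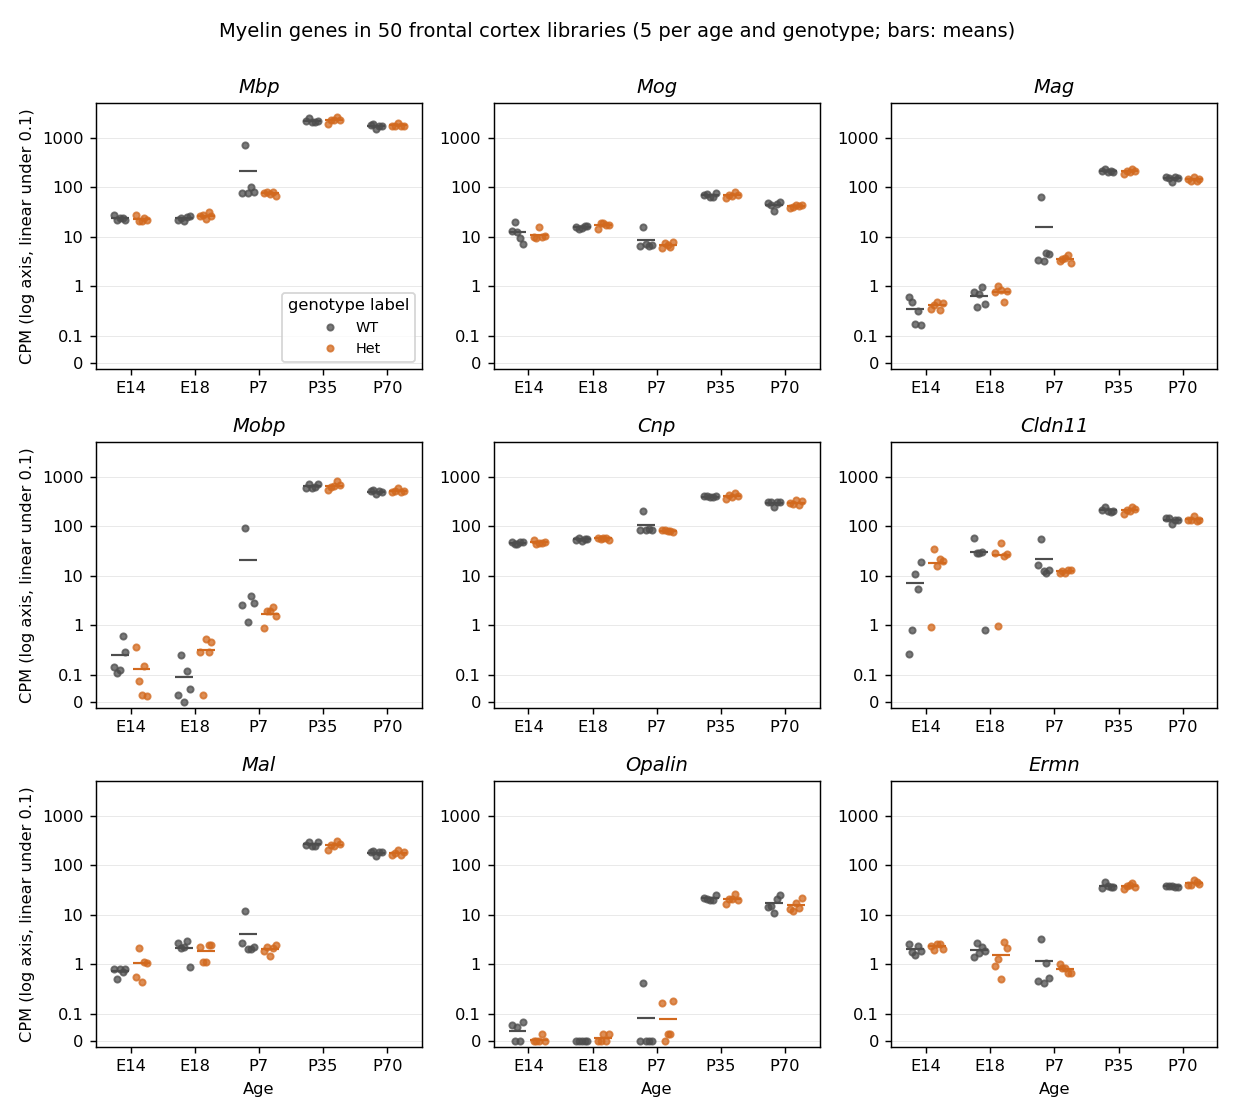
Levels of each of the 9 myelin genes (CPM, log axis) in all 50 libraries by age, with WT and Het as points and group means. Every P35 library is above every P7 library for 9 of 9 genes, and Mbp has the highest P35 mean at 2262 CPM.

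To compare the genes with each other, levels were divided by exon length (RPKM, which is CPM per kilobase of exon). At E14 Cnp led with a mean of 12.98 RPKM, followed by Mog at 6.92, Cldn11 at 6.88, Mbp at 2.76, Ermn at 0.599, Mal at 0.322, Mag at 0.0941, Mobp at 0.0283 and Opalin at 0.00697 RPKM. Ranges over the 10 libraries separated only Cnp from Mog, Mbp from Ermn and Mal from Mag. At E18 the order was Cnp at 15.4, Cldn11 at 14.9, Mog at 9.75, Mbp at 2.99, Mal at 0.729, Ermn at 0.485, Mag at 0.176, Mobp at 0.0299 and Opalin at 0.00182 RPKM. Neighbours whose ranges did not overlap were Mog and Mbp, Mbp and Mal, and Mag and Mobp. At P7, without WT replicate 2, Cnp was at 22.8, Mbp at 9.42, Cldn11 at 6.89, Mog at 4.02, Mag at 0.929, Mal at 0.767, Mobp at 0.311, Ermn at 0.198 and Opalin at 0.0151 RPKM. Mbp overlapped Cldn11, and Mag, Mal, Mobp and Ermn overlapped each with the next. With that library the means were 26.2, 16.9, 9.12 and 4.54 RPKM for the first 4, then Mag at 2.39, Mobp at 1.67, Mal at 1.11, Ermn at 0.269 and Opalin at 0.0278 RPKM, and every gene overlapped the next.

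By P35 Mbp had moved to the top of the order at 267 RPKM. It was followed by Cldn11 at 114, Cnp at 112, Mobp at 96.4, Mal at 94.7, Mag at 52.4, Mog at 40.8, Ermn at 10.6 and Opalin at 7.20 RPKM. Cldn11, Cnp, Mobp and Mal overlapped each with the next, as did Mag and Mog. At P70 Mbp was at 209, Cnp at 82.2, Mobp at 75.3, Cldn11 at 73.2, Mal at 64.7, Mag at 36.7, Mog at 25.3, Ermn at 11.2 and Opalin at 5.62 RPKM. Of these neighbours Cnp, Mobp, Cldn11 and Mal overlapped. Mbp held 33.6% of the summed level of the 9 genes at P35 and 35.9% at P70, the place that Cnp held with 42.4% at E14 and 50.3% at P7 without WT replicate 2.

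Differences between ages were tested with edgeR over all 16330 genes, averaging the genotypes. A call is an adjusted p under 0.05. The p-values measure the spread between mice, and since the labels do not name litters, the part of litter was not tested. In bulk tissue fewer oligodendrocytes and less RNA per cell cannot be told apart either.

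From E14 to E18 4 of the 9 genes rose, where 35.98% of all tested genes rose. They were Mal (log2 fold change 1.19, SE 0.29, adjusted p 0.000381), Cldn11 (1.25, SE 0.44, adjusted p 0.0111), Mog (0.50, SE 0.13, adjusted p 0.000521) and Cnp (0.24, SE 0.095, adjusted p 0.0206). The ranges at E14 and E18 overlapped for all 9 genes. Without P7 WT replicate 2, which enters the estimate of spread, Mag was called as well (0.91, adjusted p 3.09e-05), beside 36.3% of all genes. Mbp, at 0.11, was not called.

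From E18 to P7 the 9 genes went different ways. With all libraries 5 were higher at P7, beside 37.9% of all genes, and 2 were lower, beside 38.2%. Mobp rose by a log2 fold change of 5.12 (SE 0.77, adjusted p 8.34e-08), Mag by 3.41 (SE 0.42, adjusted p 8.41e-10) and Mbp by 2.33 (SE 0.24, adjusted p 6.18e-12). Without P7 WT replicate 2 these were 3.61 (SE 0.3, adjusted p 7.29e-15), 2.40 (SE 0.13, adjusted p 3.17e-21) and 1.66 (SE 0.066, adjusted p 1.61e-25). Cnp rose by 0.75 (SE 0.095, adjusted p 1.72e-09) with that library and by 0.56 (SE 0.044, adjusted p 1.51e-15) without it. The fifth higher gene was Opalin (adjusted p 0.000975), whose P7 counts came mainly from 3 libraries and which was not called without P7 WT replicate 2.

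Mog and Ermn went down over the same interval. Mog had a log2 fold change of −1.11 (SE 0.13, adjusted p 2.25e-10), or −1.28 (SE 0.11, adjusted p 2.65e-14) without P7 WT replicate 2. Ermn had −0.86 (SE 0.24, adjusted p 0.00145), or −1.33 (SE 0.19, adjusted p 5.15e-08) without it. Leaving out that library also brought Cldn11 past the threshold at −1.11 (SE 0.43, adjusted p 0.019), so that 4 genes were higher, beside 37.2% of all genes, and 3 lower, beside 39.4%. Cldn11 was called at this step in 4 of 57 settings, with values from −1.11 to −0.11. Mal was not called with all libraries (0.53, SE 0.25, adjusted p 0.051) or without P7 WT replicate 2 (0.07, SE 0.17, adjusted p 0.704), but was called in 14 of 57 settings, with values from 0.07 to 0.61. Opalin was called in 54.

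From P7 to P35 9 of 9 genes rose, beside 38.0% of all tested genes, or 38.8% without P7 WT replicate 2. Every P35 library was above every P7 library for each gene. Without that P7 library Mobp had the largest rise of the 8 genes with a usable P7 level, a log2 fold change of 8.27 (SE 0.18, adjusted p 7.43e-36), which is 309 times. Mal rose by 6.94 (SE 0.16), Mag by 5.81 (SE 0.1), Ermn by 5.77 (SE 0.18) and Mbp by 4.82 (SE 0.077, adjusted p 1.16e-40). The smallest rises were those of Cldn11 at 4.05 (SE 0.47, adjusted p 1.89e-10), Mog at 3.34 (SE 0.11) and Cnp at 2.30 (SE 0.046). With all libraries the values were lower, at 6.77 for Mobp, 6.49 for Mal, 4.81 for Mag, 5.31 for Ermn, 4.16 for Mbp, 3.70 for Cldn11, 3.17 for Mog and 2.11 for Cnp. Opalin went from 17 counts summed over the WT libraries and 15 over the Het libraries at P7, where 7 of 10 libraries held at most 1, to 3754 and 3717 counts at P35.

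The 9 genes move together from P7 to P35, and their promoters are shown for that reason. RefSeq (GRCm38.p6) gave a window of 250 bases before to 50 bases after its own start of the gene for 8 of the 9, all but Mbp. Both strands were searched, and motif positions are counted from that start. It lies 35 bases inside the gene span given below for Mobp and Cnp and 10 bases inside it for Mag. SOX factors such as Sox10 bind the core ACAAAG, which 18.7% of all 32851 promoters of this length hold, or its variant ACAATG, which 12.6% of them hold. The Myrf site CTGGCAC is present in 5.01% of these promoters, and its other form CTGGTAC is found in 2.24% of them. Olig2 and its relatives bind E-boxes, of which CAGCTG was found in 16.3% of promoters. The next E-box searched, CATATG, lies within 3.91% of promoters, and the remaining E-box CAGATG lies within 17.2% of them. The last motif searched was the TATAAA of the promoter core, present in 13.6% of promoters. The first 2 E-boxes read the same on both strands, and no 2 motifs found here overlapped. Of the 8 promoters 6 held at least 1 match, as did 60.2% of all promoters. The 4 shown are those with more than 1 match, in lower case with the matches in capitals, each written 5′ to 3′ along its gene: Mag at chr7:30914814-30915113 on the minus strand, Mobp at chr9:120149492-120149791 on the plus strand, Cnp at chr11:100574689-100574988 on the plus strand and Opalin at chr19:41077064-41077363 on the minus strand.
Mag: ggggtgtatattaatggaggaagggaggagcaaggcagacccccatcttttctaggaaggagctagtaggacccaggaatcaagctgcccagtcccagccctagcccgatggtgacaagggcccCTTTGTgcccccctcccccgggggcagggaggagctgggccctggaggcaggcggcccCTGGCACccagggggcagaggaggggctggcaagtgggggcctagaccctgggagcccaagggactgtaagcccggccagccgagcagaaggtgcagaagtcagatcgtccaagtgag
Mobp: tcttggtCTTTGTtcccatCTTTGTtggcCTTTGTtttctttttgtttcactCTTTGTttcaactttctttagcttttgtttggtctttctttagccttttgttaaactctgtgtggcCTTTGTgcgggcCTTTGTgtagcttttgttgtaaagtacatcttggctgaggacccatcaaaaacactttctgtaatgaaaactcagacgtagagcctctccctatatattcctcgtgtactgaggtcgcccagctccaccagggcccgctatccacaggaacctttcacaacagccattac
Cnp: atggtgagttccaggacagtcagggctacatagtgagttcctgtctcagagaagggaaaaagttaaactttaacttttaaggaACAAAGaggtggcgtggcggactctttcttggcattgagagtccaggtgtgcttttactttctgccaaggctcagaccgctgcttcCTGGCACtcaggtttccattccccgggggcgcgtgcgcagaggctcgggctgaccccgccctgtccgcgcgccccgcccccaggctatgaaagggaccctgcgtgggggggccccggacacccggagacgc
Opalin: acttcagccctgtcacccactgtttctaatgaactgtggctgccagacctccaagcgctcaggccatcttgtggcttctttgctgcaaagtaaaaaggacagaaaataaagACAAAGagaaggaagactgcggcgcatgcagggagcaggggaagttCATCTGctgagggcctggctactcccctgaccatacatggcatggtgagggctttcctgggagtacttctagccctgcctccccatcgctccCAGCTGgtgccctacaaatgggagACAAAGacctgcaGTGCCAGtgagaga

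Mag and Cnp each held 1 ACAAAG and 1 CTGGCAC, at −126 and −68 bases from the start in Mag and at −167 and −81 in Cnp. Mobp held 6 copies of ACAAAG between −243 and −120, all read on the other strand as CTTTGT. Opalin held ACAAAG at −139 and 23, CAGATG at −93, CAGCTG at −1 and CTGGCAC at 36. Of the others, Mog held CTGGTAC at −83 and Ermn ACAATG at −234, while Cldn11 and Mal held none of the 8 motifs in this window. A match is a description of letters, and binding was not measured.

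From P35 to P70 some of the myelin genes came down, by far less than they had risen. With all libraries 3 of 9 were called lower, beside 4.75% of all tested genes: Mog at −0.69 (SE 0.12, adjusted p 0.000126), Cnp at −0.45 (SE 0.094, adjusted p 0.00118) and Mal at −0.55 (SE 0.17, adjusted p 0.0325). Mog and Cnp were called at this step in 57 of 57 settings and Mal in 47, with adjusted p for Mal up to 0.43. Without P7 WT replicate 2 the estimated spread shrank and 6 were called lower, beside 5.80% of all genes. The added ones were Mag at −0.51 (SE 0.072, adjusted p 3.71e-06), Mbp at −0.35 (SE 0.061, adjusted p 9.69e-05) and Mobp at −0.36 (SE 0.11, adjusted p 0.0308). Cldn11 was at 64.0% of its P35 mean at P70 with ranges that did not overlap, yet its test gave −0.64 with an adjusted p of 0.306. The test uses 1 estimate of spread per gene over the libraries of all ages, and the part of the uneven embryonic libraries in this p was not tested. Opalin (−0.36, adjusted p 0.0929) and Ermn (0.07, adjusted p 0.778) were not called either. P70 means of the other genes were between 62.0% of the P35 mean for Mog and 78.3% for Mbp, and the ranges at P35 and P70 overlapped for Mbp, Mobp, Opalin and Ermn.

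The genotypes were compared at each age and over all ages, which is the question the study asked. Over all 50 libraries with age as a covariate edgeR called 0 of 9 genes, where it called 4.43% of all tested genes. At an unadjusted p under 0.05 there were 0 as well. Limma-voom and DESeq2 each called 0 of the 9, beside 753 and 823 of all genes, although DESeq2 gave no p for Mag, Mbp and Mobp. The lowest p-values were those of Mag (log2 fold change −0.49, SE 0.25, edgeR p 0.0558) and Mobp (−0.72, SE 0.37, edgeR p 0.0573). Without P7 WT replicate 2 the count was again 0, beside 4.35% of all genes, and the values for Mag and Mobp shrank to −0.02 and −0.04. A test for a genotype effect that differs between ages called 0 of 9 with edgeR, beside 0% of all genes, with 3 of the 9 (Mbp, Mag and Mobp) at an unadjusted p under 0.05. Limma-voom and DESeq2 called 0 of the 9 in this test, beside 0 and 21 of all genes. Without P7 WT replicate 2 edgeR again called 0, beside 0.00613% of all genes, with 2 of the 9 at an unadjusted p under 0.05.

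At P7 edgeR called 3 of 9 genes lower in Het, where 0.723% of all tested genes were called lower. They were Mobp (−3.63, SE 0.65, adjusted p 0.00322), Mag (−2.14, SE 0.45, adjusted p 0.0122) and Mbp (−1.47, SE 0.32, adjusted p 0.0177), which of the 8 genes with a median above 0 have the greatest excess in P7 WT replicate 2. Without that library 0 of 9 were called, beside 0.0429% of all genes, with 2 at an unadjusted p under 0.05 (Mobp and Opalin). The differences between 4 WT and 5 Het mice were then −0.62 for Mobp (SE 0.27, edgeR adjusted p 0.985), −0.13 for Mag (SE 0.15) and −0.15 for Mbp (SE 0.093). Their SEs use 1 estimate of spread per gene over the libraries of all ages. With all libraries edgeR called 120 of all 16330 genes at P7, in either direction. Limma-voom called 0 of the 9, beside 16 of all genes, and the replicate block 0, beside 20. DESeq2 called 2 (Mbp and Mobp), beside 128 of all genes, with no p for Mag. Leaving out P7 Het replicate 1 instead left 1 call, beside 32 of all 16323 genes then tested. Leaving out P7 WT replicate 3 gave 4, with Cnp at an adjusted p of 0.0478. Calls at P7 therefore rest on a single WT library.

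At E14 edgeR called 0 of 9 genes by genotype, beside 0.129% of all tested genes. Cldn11 alone was at an unadjusted p under 0.05 (1.34, SE 0.65, edgeR adjusted p 0.405), with the genotypes overlapping from 0.948 to 18.8 CPM. Limma-voom and DESeq2 called 0 of the 9, beside 26 and 114 of all genes. Over 58 settings of edgeR, limma-voom and DESeq2 the value of Cldn11 ran from 1.00 to 2.08, with a lowest adjusted p of 0.0505 and 0 calls. At E18 the counts were 0 of 9 called and 0 at an unadjusted p under 0.05 with edgeR, beside 0.110% of all genes. Limma-voom and DESeq2 again called 0 of the 9, beside 10 and 111 of all genes. With the 3 libraries that stood apart left out together, 0 of 9 were called at either age. The shares of all genes called were then far larger, at 7.11% at E14 and 1.18% at E18, with 2 and 1 of the 9 at an unadjusted p under 0.05. In adults the fitted genotype differences were small. At P35 they lay between −0.05 for Mal and 0.05 for Mbp, with 0 of 9 called by edgeR, 0 at an unadjusted p under 0.05 and 0% of all genes called. At P70 they lay between −0.16 for Opalin and 0.21 for Ermn, with 0 called, 0 at an unadjusted p under 0.05 and 0.233% of all genes called. Limma-voom called 0 of the 9 at both adult ages, beside 0 of all 16330 genes at P35 and 30 at P70. DESeq2 also called 0 of the 9, beside 11 and 77 of all genes. SEs at P35 were between 0.13 for Cnp and 0.58 for Cldn11, and without P7 WT replicate 2 between 0.059 and 0.54, which bounds what could have been seen. A p above the threshold does not show that the genotypes are equal.

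**Figure D4:**
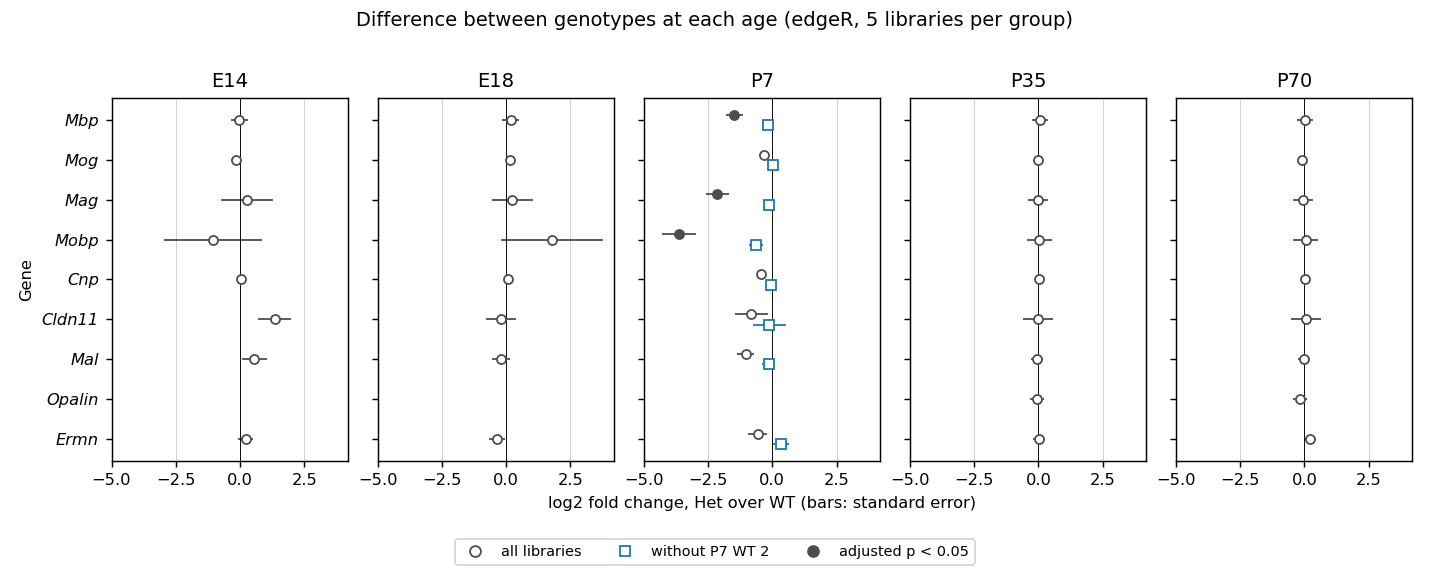
Log2 fold changes of Het against WT for the 9 myelin genes at each age, with SE bars, for all 50 libraries. Opalin is not drawn at E14, E18 and P7. The P7 panel also shows the fit without P7 WT replicate 2. At P7 Mobp moves from −3.63 to −0.62, Mag from −2.14 to −0.13 and Mbp from −1.47 to −0.15 when that library is left out.

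Neighbouring gene groups show where the 9 stand in the lineage. Counts here are without P7 WT replicate 2, and all tested genes had a median log2 fold change of 0.00 from E14 to E18, −0.02 from E18 to P7, 0.01 from P7 to P35 and 0.00 from P35 to P70. Of all tested genes 36.3, 37.2, 38.8 and 6.01% rose over these 4 steps and 37.8, 39.4, 37.7 and 5.80% fell, and every list below is to be read beside these shares. The medians of the 9 genes over the same steps were 0.24, 0.56, 5.77 and −0.44. Of 32 other myelin and mature oligodendrocyte genes 22, 19, 31 and 3 rose over the 4 steps and 4, 6, 0 and 7 fell, with medians of 0.82, 0.75, 2.68 and −0.04. Cntn2, an adhesion protein also made by neurons, went from a mean of 887 CPM at E14 to 155 CPM at P35, while Qdpr (36.2 CPM at E14, 107 at P35) and Car2 (7.26 CPM at E14, 110.2 at P35) rose.

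Genes of earlier stages rose in other steps as well. Of 8 genes of newly formed oligodendrocytes 8 rose from E14 to E18 and 7 from E18 to P7, with medians of 0.89 and 1.82, and from P7 to P35 4 rose and 1 fell with a median of 0.13. From P35 to P70 0 rose and 2 fell. Bcas1, a marker of that stage, rose by 3.29 from E18 to P7 and by 2.11 from P7 to P35, and Gpr17, a receptor that is silenced as the cells mature, was as high at P7 (77.6 CPM) as at P35 (76.5 CPM). Rap2a and Fyn, with means of 156.9 and 239 CPM at P7, stood at 149 and 144 CPM at P35. Of 8 precursor genes 7, 6, 0 and 0 rose over the 4 steps and 1, 1, 6 and 1 fell. Vcan had means of 125 CPM at P7 and 24.6 CPM at P35 (−2.34), and Ptprz1 566 and 201 CPM (−1.49), while Lhfpl3 stood at 37.3 and 24.8 CPM and C1ql1 at 12.9 and 11.3 CPM.

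Of 10 transcription factors of the lineage 4, 7, 7 and 0 rose over the 4 steps and 4, 2, 1 and 1 fell, with medians of −0.01, 0.57, 0.43 and −0.14. For the rises from E14 to E18 that is 4 of 10 beside 36.3% of all genes. Myrf rose by 3.27 and Nkx6-2 by 2.40 from P7 to P35. Sox10 rose by 2.93 from E14 to E18 and by 0.86 from P7 to P35, when its mean went from 27.7 to 50.4 CPM, against 4.82 for Mbp. Olig1 rose by 2.30 from E14 to E18 and had means of 156 CPM at P7 and 140.2 CPM at P35. At the same ages Olig2 had means of 45.3 and 35.1 CPM and Sox8 of 32.3 and 50.9 CPM. Of 14 genes of myelin lipid and cholesterol synthesis 12, 8, 5 and 0 rose and 0, 3, 8 and 8 fell, so that more fell than rose while the 9 myelin genes rose. Hmgcs1, an early enzyme of cholesterol synthesis, went from a mean of 920.4 CPM at P7 to 332 CPM at P35 (−1.47). Scd2, a desaturase of fatty acids, had means of 1285 and 1274 CPM.

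Of 9 axonal partners of the node and paranode 6, 7, 6 and 0 rose over the 4 steps and 3, 1, 1 and 1 fell, beside 36.3, 37.2, 38.8 and 6.01% of all genes that rose and 37.8, 39.4, 37.7 and 5.80% that fell. Cntnap1, the axonal partner at the paranode, rose by 3.04 from P7 to P35, from a mean of 40.2 to 327 CPM, and Cntn1 fell from 570.3 to 379.5 CPM. Sptbn4 had means of 285 and 405 CPM and Nfasc of 215 and 395 CPM. By genotype, Tmem88b (−0.88, adjusted p 0.0287) and Tcf7l2 (−1.78, adjusted p 0.0190) were among the genes of these lists called at P7 with all libraries, and neither was called without P7 WT replicate 2. Adamts4 was called higher in Het only without that library, at 0.24 over all ages (adjusted p 4.91e-05) and at 0.38 at E18 (adjusted p 0.0474).

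The genes most like the 9 were ranked by Pearson r with the mean of their log2 CPM, as a description with no test. Over all 50 libraries the 10 nearest were Hapln4 and Tmem88b at 0.993, Hipk4 and Fam102a at 0.989, Igfn1 at 0.988, Pvalb at 0.987, Mt1 at 0.986, and Tmbim1, Vamp1 and Klk6 at 0.985. Any gene that is low up to P7 and high after it ranks high on this measure, and 1471 of 16321 genes were above 0.9. Within the 9, each against the mean of the other 8, r ran from 0.808 for Cldn11 and 0.872 for Mog to 0.991 for Mal. Of the 32 other myelin genes 23 were above 0.9, with a median of 0.934 against −0.001 for all genes.

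Among the 20 adult libraries, with each group's mean subtracted, the nearest genes included Mppe1 at 0.916, Bcas1, Ido1 and Sh3gl3 at 0.911, Adra2b at 0.903, Lmo2 at 0.898, Foxp2 at 0.894, Tmem63a at 0.891 and Plekhb1 at 0.887. Members against the mean of the other 8 gave r from 0.862 for Mog to 0.922 for Cnp in 7 genes, but 0.600 for Opalin and 0.523 for Ermn. 7 of the genes thus differed together between adult mice of the same age and genotype, and Opalin and Ermn followed them less closely. P35 Het replicate 4 was above its group in 9 of 9 genes, by 0.22 on average on the log2 scale, and P70 Het replicate 3 in 9 of 9 by 0.18. P35 Het replicate 1 was below in 9 of 9 (−0.23) and P70 WT replicate 3 in 8 of 9 (−0.26).

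The same libraries differed in genes of the striatum, which lies beneath the frontal cortex. The 6 striatal markers summed to 516, 775, 455, 474 and 555 CPM in P35 WT and to 322, 822, 507, 845 and 719 CPM in P35 Het. At P70 the sums were 769.7, 844, 208, 685 and 576 CPM in WT and 383, 650.3, 1066, 376 and 793 CPM in Het. P70 WT replicate 3 had the lowest sum and P70 Het replicate 3 the highest. With group means subtracted, 7 of the 9 genes followed the striatal sum at an adjusted p under 0.05 over 81 relations (9 genes by 9 marker lists, 100000 permutations, for which 1e-05 is the smallest p they can give). All 7 passed by Pearson r and by Spearman rho. At the same p, 4.13% of the other tested genes followed the striatal sum upward by r and 3.43% by rho.

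Mal had Pearson r 0.87 (permutation p 1e-05, adjusted 0.000324) and Spearman rho 0.89 (permutation p 1e-05, adjusted 0.000405) with the striatal sum, and r 0.84 without the 2 farthest libraries. Its r was 0.89 within P35 and 0.97 within P70. Cnp had r 0.90 (permutation p 5e-05, adjusted 0.00045) and rho 0.84 (permutation p 6e-05, adjusted 0.000694), with r 0.81 without the 2 farthest. For Mag r was 0.88 (permutation p 0.00018, adjusted 0.00146), rho 0.88 (permutation p 5e-05, adjusted 0.000675), and r 0.76 without the 2 farthest. These 3 genes had the closest relations by r. Cldn11 had r 0.83 (permutation p 4e-05, adjusted 0.000405) and rho 0.83 (permutation p 0.0001, adjusted 0.00101), and Mbp r 0.82 (permutation p 3e-05, adjusted 0.000347) and rho 0.84 (permutation p 4e-05, adjusted 0.000675). Mobp had r 0.80 (permutation p 1e-05, adjusted 0.000324) and rho 0.86 (permutation p 1e-05, adjusted 0.000405), and Mog r 0.79 (permutation p 0.0009, adjusted 0.00405) and rho 0.69 (permutation p 0.00232, adjusted 0.0114). Without the 2 farthest libraries these 4 had r of 0.71, 0.72, 0.74 and 0.60.

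Opalin and Ermn followed the striatal sum less closely and did not pass. For Opalin r was 0.57 (permutation p 0.0395, adjusted 0.094), rho 0.44 (permutation p 0.0942, adjusted 0.219) and r without the 2 farthest 0.30. For Ermn r was 0.44 (permutation p 0.0406, adjusted 0.094), rho 0.45 (permutation p 0.0625, adjusted 0.169) and r without the 2 farthest 0.45. Within P35 r was 0.68 for Opalin and 0.71 for Ermn, and within P70 it was 0.55 and 0.26.

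Other marker lists followed the 9 genes in adults to differing degrees. Thalamus and hindbrain markers passed for 8 of 9 genes by Pearson r (0.27 to 0.87) and for 6 by Spearman rho, beside 3.74 and 3.00% of other tested genes with a positive relation at the same p. Their adult sums ran only from 13.1 to 27.8 CPM, with Prkcd the most abundant gene in every adult group. In P35 WT and in P70 Het 2 of the 5 genes had no counts in any library. The part of Prkcd alone in these relations was not tested. Choroid plexus markers passed for 7 of 9 by r (0.35 to 0.73) and for 6 by rho, beside 3.23 and 2.65%. Neuron markers passed for 4 of 9 by r (−0.69 to −0.35) and for 2 by rho, beside 2.49 and 1.43% of genes with a negative relation. Frontal cortex markers had r from −0.62 to −0.02 and passed for 0 of 9 by either statistic, as did Schwann cell (−0.42 to 0.23), astrocyte (−0.11 to 0.13), microglia (−0.18 to 0.56) and endothelial markers (−0.19 to 0.23). The part of tissue from beside the cortex in the spread of the 9 genes between adult mice was not tested.

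**Figure D5:**
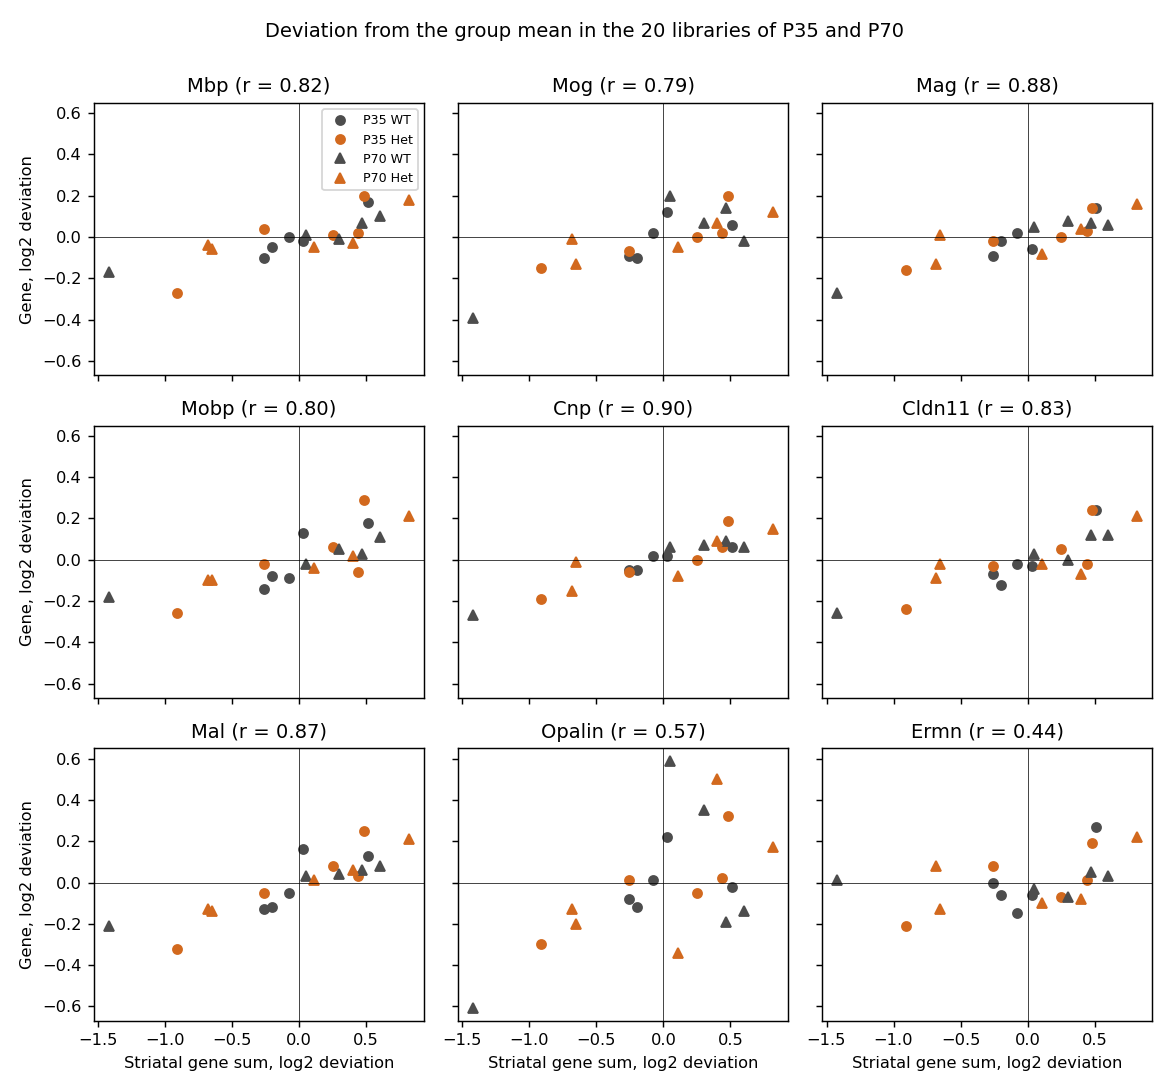
For each of the 9 myelin genes, the level in the 20 adult libraries against the summed level of 6 striatal markers, both as log2 deviations from the group mean. P70 WT replicate 3 is lowest on the marker axis with a sum of 208 CPM and P70 Het replicate 3 highest with 1066 CPM.

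In the genome (GRCm38) the 9 genes lie on 8 chromosomes, and only Mal and Ermn share one. Mog (ENSMUSG00000076439) spans chr17:37010743-37023398, Mag (ENSMUSG00000036634) chr7:30899176-30914873 and Mobp (ENSMUSG00000032517) chr9:120149707-120181484. Cnp (ENSMUSG00000006782) spans chr11:100574904-100591729, Cldn11 (ENSMUSG00000037625) chr3:31149920-31164324 and Opalin (ENSMUSG00000050121) chr19:41061710-41077113. Mal (ENSMUSG00000027375) at chr2:127633226-127656695 and Ermn (ENSMUSG00000026830) at chr2:58045113-58052864 are far apart, and Mbp is ENSMUSG00000041607 at chr18:82475146-82585637. Cnp and Ermn are the ones noted above as sharing exon bases with a protein-coding neighbour.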

How the data were processed

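The authors trimmed reads with Trimmomatic, aligned them to GRCm38 with STAR and deposited raw counts per gene from featureCounts 1.4.6-p2, counted as read pairs over exons of Ensembl release 102 without regard to strand. Symbols came from GENCODE M21. Samples were grouped by the age and genotype of their labels. Protein-coding genes were kept if 5 or more libraries reached 10 counts, scaled to the median depth. Counts were scaled by TMM and tested in edgeR 4.0.16 (R 4.3.3) with quasi-likelihood F tests in a fit of 10 groups, or with age and genotype as terms, and p-values were adjusted over all tested genes (Benjamini-Hochberg). CPM used TMM-scaled totals over tested genes. Correlations used Python 3.11.15 and scipy 1.17.1 with 2-sided permutation p-values. The alternatives were limma-voom (limma 3.58.1), DESeq2 1.42.0, its size factors, other count filters, RNA integrity as a covariate, a replicate block, and leaving out libraries. The fits were tested on simulated data with the same spread set for every gene. Those data held no outlying library, so they do not cover a case such as P7 WT replicate 2.

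The 9 members and the gene lists were chosen with earlier results of these data known. All 9 members are named. Of each list, genes called by genotype are named, and otherwise up to 4 with the highest level per length, except some genes that count in the totals and are not reported here by name. The meningeal genes and the neighbouring genes were added after values were seen.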

Additional observations from a re-analysis of the deposited data

Results flagged for a closer look

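In each group of 5 libraries the highest and the lowest value were compared with the rest, and a library was listed where its gap to the nearest other value was above 0.71 of the group's range. Chance lists about 1 in 20 groups. Of 190 groups 29 were listed, 17 of them among the 90 groups of the 9 myelin genes.

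P7 WT replicate 2 accounts for 15 of the 29. It was far above the other 4 WT libraries for Mbp (715 CPM), Mog (15.7), Mag (63.3), Mobp (95.0), Cnp (206.2), Cldn11 (54.7), Mal (11.7), Opalin (0.417) and Ermn (3.31 CPM). The summed markers of astrocytes (1358 CPM), choroid plexus (619 CPM) and thalamus and hindbrain (56.8 CPM) were also far above in it. Those of Schwann cells (62.4 CPM), neurons (1727 CPM) and frontal cortex (315 CPM) were far below. Gene by gene, 1 of the 4 tested Schwann cell markers was below the other 9 P7 libraries, against 3 of 5 neuron and 5 of 5 frontal cortex markers.

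P70 WT replicate 3 was far below its group for Mag (126 CPM), Cnp (243 CPM) and Mal (156 CPM) and far above it for the frontal cortex markers (592 CPM). P70 Het replicate 3 was far above its group for Mbp (2029.5 CPM), Cldn11 (160.5 CPM) and the choroid plexus markers (41.4 CPM). Cldn11 was far above the other P35 WT libraries in replicate 2 (250.4 CPM), a value that P35 Het replicate 4 reached too (251 CPM).

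Mog was far above the other E14 Het libraries in replicate 3 (15.7 CPM). Opalin was listed in E14 Het replicate 4 (0.0253 CPM) on a single count against 0 in the other 4. E14 Het replicate 2 was far above its group for the astrocyte markers (303 CPM) and the endothelial markers (346 CPM). P7 WT replicate 4 was far from its group for the striatum markers (188 CPM), and P70 Het replicate 5 for the Schwann cell markers (103 CPM).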

How the results depend on the processing

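The counts of 0 of 9 genes called by genotype, at E14, E18, P35 and P70, over all ages and for the interaction, were 0 under all 8 other settings and with each of the 50 libraries left out in turn. The count of 3 at P7, beside 120 of all genes, was 0 with limma-voom (beside 16) and 0 with the replicate block (beside 20). With E14 WT replicate 5, E18 WT replicate 2 and P7 WT replicate 2 left out together it was 0, beside 9 of all genes. When 1 library was left out it was 0 to 4. From P35 to P70 the count of 3, beside 1591 of all genes, became 2 with limma-voom (beside 1336), DESeq2 (1934) and RNA integrity as a covariate (1439). It was 6, beside 2195 of all genes, with the same 3 libraries left out and 2 to 6 when 1 was left out. Other settings gave 3 to 6 genes from E14 to E18, 6 to 8 from E18 to P7 and 8 to 9 from P7 to P35, where DESeq2 gave no p for Mag. Beside these, the same settings called 9672 to 12155, 9981 to 12768 and 9873 to 12824 of all genes, with 12082 to 20032 tested.

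4 of the small genotype differences over all ages, none of which passed the test, changed sign. With the 3 libraries left out the log2 fold change of Mbp by genotype with age as a covariate was 0.01, that of Cnp 0.03 and that of Ermn 0.10. For the log2 fold change of Ermn by genotype with age as a covariate limma-voom gave 0.09 and the replicate block 0.01. Leaving out 1 library gave −0.26 to 0.02 for Mbp, −0.06 to 0.03 for Cnp, −0.02 to 0.19 for Cldn11 and −0.06 to 0.08 for Ermn. These values come with fewer samples where libraries were left out, and otherwise the cause was not tested.

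The replicate block pairs WT and Het libraries of the same number and age. Over 25 such pairs the correlation of their deviations had a median of 0.06 and ran from −0.20 to 0.46, and 9 were above 0.1, so the labels give little sign of pairing. Depth limits Opalin and Mobp before birth, where most libraries hold few counts, and SEs limit the genotype differences of Cldn11 at every age.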
